A study of Mus musculus with 45 samples.

Results

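The immediate early and AP-1 genes are 10 of the 52636 genes measured: Fos, Fosb, Jun, Junb, Jund, Egr1, Atf3, Ier2, Dusp1 and Zfp36. They were taken by name, as genes transcribed within minutes of a stimulus, and all 10 are present in both expression tables. The study asks what the receptor Lgr5 does in mouse intestinal stem cells. RNA was sequenced from 15 libraries of sorted intestinal cells in 7 groups and from 30 libraries of cultured organoids in 12 groups.

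Each sorted group held 2 libraries, except for 3 labelled as Lgr5-Cre/flox conditional knockout (cKO). Embryonic cells were sorted for eGFP at E16.5 from pools of 7 and 8 Lgr5-DTReGFP heterozygotes (HE) and of 2 and 6 knockouts (KO), in litters 85 and 97. Single E18.5 HE embryos gave a further 2 libraries. Duodenum and ileum of 2 adult HE mice, 2 months old, gave 4. A last set came from adult ileum, also at 2 months, 48 h after 2 mg of tamoxifen, sorted for eGFP and RFP, with 2 libraries labelled Lgr5-Cre/+ HE and 3 labelled cKO. Organoids were grown from E17.5 intestine of 3 wild-type (WT) and 2 KO embryos of the Lgr5-DTReGFP line, to passage 4, with mouse Rspo1, Rspo2 or Rspo3 at 5 or 100 ng/ml. R-spondins are the secreted ligands of Lgr5. Sorted libraries held 1276228 to 9991645 reads on genes, so that 1 read was 0.1 to 0.784 CPM, the unit of both tables (reads on a gene scaled to the library's total). Organoid libraries held 18460000 to 33110000 reads, and 1 read was 0.0302 to 0.0542 CPM.

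Immediate early genes are switched on by transcription factors that already sit in the cell, without new protein synthesis, when growth factors, stretch or stress activate MAP kinases. Fos and Jun proteins pair through leucine zippers to form AP-1, which binds DNA at sites near its target genes. Enzymatic or mechanical dissociation of a tissue can itself switch these genes on, so their RNA in sorted cells may reflect handling as well as the state of the cells in the tissue.

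Lgr5, the targeted gene, was read first. The E16.5 HE pools had 104 and 125 CPM, and the KO pools 64.8 and 51.7 CPM. It was at 306 and 292 CPM at E18.5, at 346 and 308 CPM in adult duodenum and at 339 and 356 CPM in adult ileum. In the libraries labelled Cre HE it was at 52.8 and 87.6 CPM, and in those labelled cKO at 89.2, 109 and 90.7 CPM. The label groups did not overlap, and the libraries labelled cKO were the higher ones. The recombination removes exon 16 alone, so most of the gene-level count lies outside it.

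In organoids, Lgr5 followed the dose of ligand. With Rspo1 at 100 ng/ml it was at 116, 192 and 94.2 CPM in WT cultures WT10, WT5 and WT30, and at 5.40, 5.65 and 3.45 CPM at 5 ng/ml. With Rspo2 it was at 379, 247 and 458 CPM at the high dose and at 15.9, 28.7 and 6.10 CPM at the low dose. With Rspo3 the values were 50.6, 48.8 and 39.4 CPM against 0.35, 0.60 and 0.45 CPM. Lgr5 thus rose with dose for each ligand in WT. The KO cultures KO7 and KO2 had 57.9 and 91.7 CPM with Rspo1 at 100 ng/ml and 1.10 and 7.40 CPM at 5 ng/ml. Their values with Rspo3 were 35.1 and 41.2 CPM against 0.20 and 0.25 CPM. With Rspo2, KO7 had 104 CPM at 100 ng/ml and 20.6 CPM at 5 ng/ml, whereas KO2 had 75.0 and 90.5 CPM, so in KO2 the low dose had no lower Lgr5.

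Levels of different genes are compared here per kilobase of exon. In sorted cells Jun was the most abundant at 189 ± 83.7 CPM per kb (SD, n = 15), followed by Fos at 168 ± 73.5 and Egr1 at 130.0 ± 45.2. Atf3 (100.2 ± 57.0), Jund (91.2 ± 67.2) and Ier2 (77.0 ± 40.6) came next. Zfp36 (45.1 ± 20.3), Junb (40.7 ± 33.3), Fosb (40.2 ± 19.8) and Dusp1 (25.7 ± 17.3) were lowest. No gene differed from its neighbour in this order by more than the larger SD of the pair. The ratio of highest to lowest library ran from 3.12 for Egr1 to 9.26 for Dusp1. In organoids the order differed: Jund led at 187 ± 30.7 CPM per kb (SD, n = 30), ahead of Ier2 (58.6 ± 13.4), Junb (47.0 ± 12.5) and Jun (23.6 ± 12.3). Then came Zfp36 (16.2 ± 5.58), Atf3 (7.07 ± 5.09), Egr1 (6.01 ± 2.62) and Fos (4.11 ± 2.79). Dusp1 (1.90 ± 1.12) and Fosb (0.143 ± 0.119) were lowest. In this second order the step exceeded the larger SD of the pair from Jund to Ier2, Junb to Jun, Zfp36 to Atf3 and Dusp1 to Fosb, and not between the other neighbours. The tables were made with different library kits and scaled separately, so a gene was not tested between them.

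The 10 genes are annotated on GRCm38 at chromosome 12, 85473890 to 85477273 (Fos), chromosome 7, 19302696 to 19310051 (Fosb), and chromosome 4, 95049034 to 95052222 (Jun). Junb (84974484 to 84978718), Jund (70698949 to 70700616) and Ier2 (84661331 to 84662852) lie on chromosome 8, and Egr1 on chromosome 18 (34859823 to 34864984). Atf3 lies on chromosome 1 (191170296 to 191218039), Dusp1 on chromosome 17 (26505590 to 26562128) and Zfp36 on chromosome 7 (28376784 to 28380253). Genes on the opposite strand overlap Jun (Junos), Junb (Prdx2), Jund (Gm11175), Atf3 (Gm24748), Dusp1 (Ergic1 and Gm8225) and Zfp36 (Gm44710). AC122252.1 and AC122252.4 overlap Dusp1 on its own strand. Whether counting respected strand is not stated, so reads of these neighbours could not be told apart from reads of the member.

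**Figure D1:**
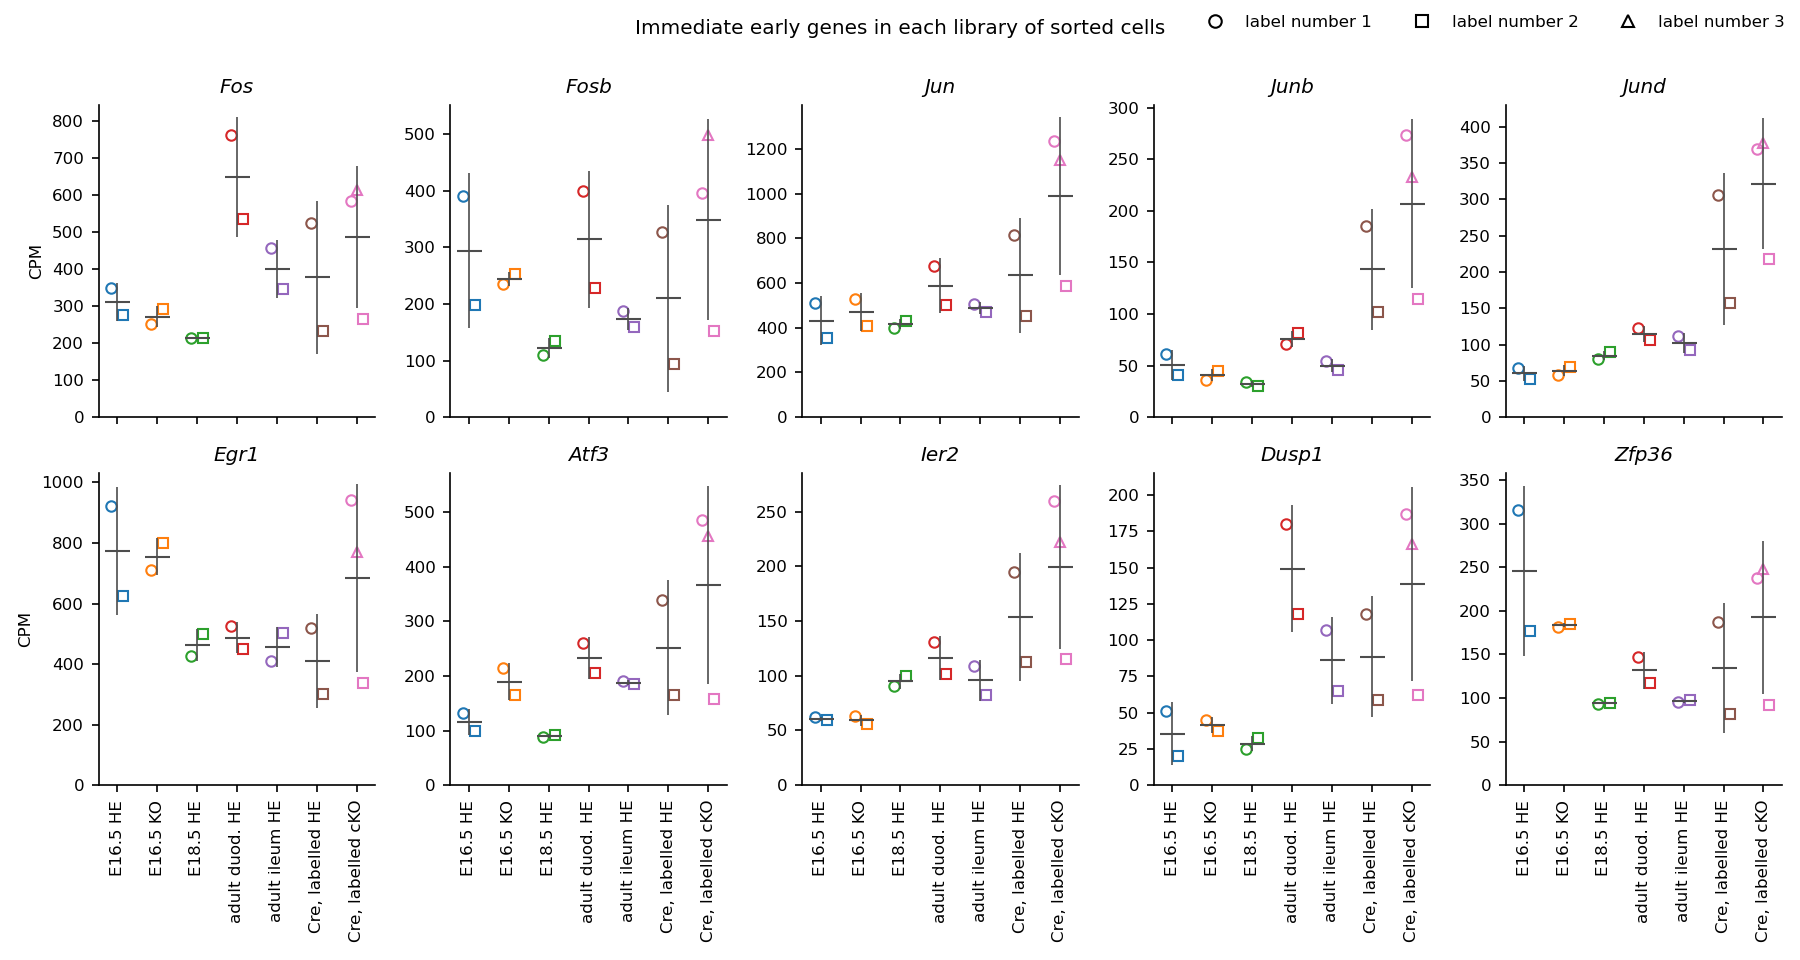
CPM of each member in the 15 sorted libraries, by group, on linear axes; each point is 1 library, shaped by its label number, and lines are the group mean and SD. Within the Cre libraries the members split into 3 high and 2 low libraries that cross the labels, with Fos at 525, 583 and 613 CPM against 232 and 267 CPM.

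Together the members took 2861 and 1900 CPM in the E16.5 HE pools, 2326 and 2310 CPM in the KO pools, and 1561 and 1718 CPM at E18.5. Adult duodenum had 3273 and 2446 CPM and adult ileum 2226 and 2044 CPM. The libraries labelled Cre HE had 3518 and 1758 CPM, and those labelled cKO 4967, 2103 and 4740.0 CPM. The members were therefore well detected in every sorted library, at 0.156% to 0.497% of its reads. Each library was dissociated before sorting and no undissociated sample was sequenced, so the share of this signal that arose from dissociation was not measured.

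The first comparison asks whether loss of Lgr5 at E16.5 changed these genes. None of the 10 passed limma at an adjusted p of 0.1 and a fold change of 1.5, the thresholds of the sorted comparisons, against 0.527% of all genes tested. At an unadjusted p of 0.05 limma had 1, and edgeR and DESeq2 called 0 each. The exception at the unadjusted p was Atf3, a basic leucine zipper factor induced by stress, which pairs with Jun or represses as a homodimer. Atf3 stood at 132 and 98.9 CPM in HE and at 214 and 165 CPM in KO, without overlap and higher in KO in 2 of 2 litters. Its log2 fold change, here and throughout on the scale of log2(CPM + 1), was 0.71 (SE 0.18), with a p of 0.00284 and an adjusted p of 0.152. With litter as a block Atf3 was called, when 4.80% of all genes were. For the other 9 members the groups overlapped and log2 fold changes lay between -0.36 for Zfp36 and 0.34 for Dusp1. The HE pools differed from each other as much: HE pool 1 had Zfp36 at 315 and Fosb at 390 CPM, and HE pool 2 had them at 177 and 197 CPM. The KO pools had Zfp36 at 182 and 185 CPM. No gene was called among the other immediate early genes, AP-1 partners, phosphatases, upstream genes, Zfp36 paralogues and heat shock genes. Markers of other cells moved between the genotypes. Of 6 enterocyte markers 4 were lower in KO, as were 3 of 5 erythroid markers and 1 of 9 mesenchymal markers. The goblet marker Fcgbp (1.03) was higher, and of the stem cell markers Axin2 (0.92) was higher and Lgr5 (-0.97) lower. No Paneth marker was called, though those tested had changes of 1.08 to 1.61. The mesenchymal sum was 1823 and 837 CPM in HE against 185 and 506 CPM in KO. In bulk samples, fewer cells of a type cannot be told apart from less RNA per cell. Xist was at 1.55 CPM in KO pool 1 and at 639 to 1224 CPM in the other pools, so sex also differed. Whether cells or sex bear on the members was not tested.

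HE cells of E18.5 were compared with those of E16.5. Reads numbered 1276228 and 1982443 in the E16.5 pools and 4336365 and 4565836 in the E18.5 libraries, which came from single embryos. Stage, library size and pooling therefore cannot be told apart. The comparison called 5 of the 10 members, against 49.6% of all genes. With every gene above 0 in a library tested, 2 were called, Ier2 and Zfp36, against 28.6%. In 1 fit of all sorted libraries 2 were called, Fosb and Zfp36, against 43.3%. The median of all genes was 0.23 in this comparison and shifted by -0.13 with DESeq2's scaling, so changes are also given relative to it. Genes called higher made up 61.0% of those called, and 46.1% with DESeq2.

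Among the AP-1 genes, Fosb, a Fos paralogue that pairs with Jun proteins, was at 390.3 and 197 CPM in the E16.5 pools and at 110.0 and 135 CPM at E18.5. It fell, with a change of -1.18 (SE 0.30, adjusted p 0.0199), or -1.41 relative to the median. Junb, the Jun protein linked to restraint of growth, was at 61.1 and 40.4 CPM and then at 34.1 and 30.1 CPM. Its change was -0.62 (SE 0.22, adjusted p 0.0586), or -0.85 relative to the median. Fos itself, the prototype of the family, was at 349 and 276 CPM and at 214 and 213 CPM. Its change of -0.54 had an adjusted p of 0.0171 but was under a fold change of 1.5, and it was called with TMM scaling (-0.60), edgeR and DESeq2. Jund, the Jun protein most evenly expressed in resting cells, was at 67.5 and 53.0 CPM and at 80.3 and 89.6 CPM. Its change of 0.50 also stayed under the fold threshold (adjusted p 0.0392). Jun was at 510 and 354 CPM against 399.9 and 431 CPM and was not called (-0.03).

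Egr1, a zinc finger factor of the immediate early response, was at 922 and 625 CPM at E16.5 and at 427 and 501 CPM at E18.5. It fell with a log2 fold change of -0.72 (SE 0.19, adjusted p 0.0233), or -0.94 relative to the median. Zfp36 encodes tristetraprolin, which binds AU-rich elements and marks messages, immediate early ones among them, for decay. Zfp36 was at 315 and 177 CPM and then at 93.4 and 94.0 CPM, a change of -1.33 (SE 0.25, adjusted p 0.00722), or -1.55 relative to the median. Ier2, a nuclear protein of the immediate early class with few known targets, moved the other way, from 61.9 and 59.0 CPM to 90.2 and 99.7 CPM. Its change was 0.64 (SE 0.12, adjusted p 0.0072), or 0.41 relative to the median. It was not called with TMM (0.58), edgeR (0.52) or DESeq2 (0.50), each under a fold change of 1.5. Relative to the median it stayed at 0.41 in each. In all these genes except Jun the E16.5 and E18.5 libraries did not overlap. Atf3 (-0.34) did not overlap either but was not called. Dusp1 overlapped, at 51.0 and 20.2 CPM against 25.1 and 32.2 CPM.

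Without either E18.5 library none of the members passed, when 4.24% and 4.17% of all genes did, so the loss was not particular to them. Their sizes changed little: Zfp36 was then at -1.32 and -1.33, Fosb at -1.03 and -1.33 and Ier2 at 0.71 and 0.57. Without E16.5 HE pool 1, 4 passed: Fosb (-0.69), Zfp36 (-0.91), Ier2 (0.67) and Jund (0.67), and Junb and Egr1 were lost. Without HE pool 2, 7 passed, with Egr1 kept, Fosb at -1.67, Zfp36 at -1.74, Junb at -0.91 and Ier2 at 0.61, joined by Fos at -0.71 and Dusp1 at -0.82. Over all settings of this comparison 768 to 9989 genes were called, against 9138 in the main test. The counts of 4 and 7 have no share of all genes beside them and are not read as particular to the members. HE pool 1 had the fewest reads and the highest Fos, Fosb and Zfp36 of the E16.5 pools.

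Related lists were counted in the same way, where 49.6% of all genes were called. Their counts are not read as particular to the lists. Of 32 other immediate early genes tested, 15 were lower, led by Cyr61 (-3.13), Egr2 (-3.04) and Egr3 (-2.04), and 4 were higher, Btg1 (1.45) and Myc (0.97) among them. Of 12 other AP-1 and bZIP partners, Maff (-2.10), Batf2 (-2.07) and Jdp2 (-1.74) were lower, and Atf7 (0.70) was among those higher. MAP kinase phosphatases and feedback inhibitors gave 5 lower, led by Dusp2 (-2.94) and Spry4 (-2.25), and 2 higher, Dusp4 (1.85) and Dusp5 (0.72). Among upstream kinases and ternary complex factors only Elk3 (-2.06) was called, and among the paralogues of Zfp36 only Zfp36l1 (-1.31). Heat shock genes, another group that dissociation can raise, had 8 of 11 lower, led by Hspe1 (-2.03). Their sum was 9561 and 11118 CPM at E16.5 and 6031 and 5973 CPM at E18.5, with Hsp90ab1 the most abundant.

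Markers of other cells moved with these genes, where 49.6% of all genes were called. All 9 mesenchymal markers were lower at E18.5, led by Pdgfra (-4.90) and Col3a1 (-4.36), with sums of 1823 and 837 CPM at E16.5 and 79.3 and 84.0 CPM at E18.5, where each was still above 0. Col3a1 is the most abundant of them. All 5 erythroid markers were lower, with sums of 1167 and 1052 CPM against 46.8 CPM or less and Hbb-bs as the main one, and all 5 endothelial markers. Of 10 immune markers 5 could be tested and 3 were lower. Whether cells of these types bear on the members that fell was not tested. Stem cell markers (5 of 6) and epithelial markers (5 of 7) were higher at E18.5.

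Adult HE cells of both regions were next set against E18.5. All 10 members had a positive change, with a median of 0.63 against -0.04 for all genes, and 4 were called, against 19.0% of all genes. Fos was at 214 and 213 CPM at E18.5, at 764 and 534 CPM in adult duodenum and at 457 and 345 CPM in adult ileum. It rose by 1.24 (SE 0.27, adjusted p 0.0224). Junb was at 34.1 and 30.1 CPM at E18.5 and at 70.5, 54.5, 81.5 and 45.6 CPM in the adult libraries, a rise of 0.92 (SE 0.23, adjusted p 0.0344). Atf3 was at 87.7 and 92.5 CPM at E18.5 and at 261, 191, 206 and 184 CPM in the adult, a rise of 1.20 (SE 0.15, adjusted p 0.00251). Dusp1 encodes the dual specificity phosphatase that switches off p38, JNK and ERK and so closes the loop that induced it. Dusp1 was at 25.1 and 32.2 CPM at E18.5, at 180 and 118 CPM in duodenum and at 107 and 64.8 CPM in ileum. It had the largest change of the members, 1.92 (SE 0.35, adjusted p 0.0106). In each of these 4 genes all 4 adult libraries lay above both E18.5 libraries. Fosb (0.90, adjusted p 0.11) was not called, though it was with TMM scaling, edgeR, DESeq2 and with duodenum alone (1.30). The groups also did not overlap for Jun (0.36), Jund (0.34) and Zfp36 (0.26), and they overlapped for Ier2 (0.14) and Egr1 (0.02).

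Without either E18.5 library only Atf3 was called, at 1.17 and 1.24, when 5.70% and 5.42% of all genes were. Fos then stood at 1.24 and 1.23, Dusp1 at 1.75 and 2.09 and Junb at 1.01 and 0.83. The test took the 4 adult libraries as independent, though they come from 2 mice. With the mean of both regions per mouse, when 25.6% of all genes were called, the same 4 members were called and Fosb (0.90) joined. The 2 adult regions gave different sizes of the same change. With ileum alone the values were 0.89 for Fos, 1.05 for Atf3, 1.52 for Dusp1 and 0.62 for Junb. With duodenum alone they were 1.58, 1.36, 2.32 and 1.22.

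The related lists stand beside 19.0% of all genes called in this comparison. Of 32 other immediate early genes, 8 were higher in the adult, led by Nr4a1 (2.53), Sik1 (2.52) and Nr4a2 (1.76), and 2 were lower, Gadd45b (-1.20) and Per1 (-0.84). AP-1 and bZIP partners gave Batf2 (1.26) higher, with Maf (-2.51) among those lower. Phosphatases and feedback inhibitors gave Dusp10 (1.05) higher and Dusp4 (-1.64) and Dusp5 (-0.61) lower. Of the upstream genes Mapk14 (-0.67) and Map2k2 (-0.62) were lower, and of the heat shock genes Hspe1 (-0.96) and Hspd1 (-0.85). Neither Zfp36 paralogue tested was called. The sum of the heat shock genes was 4615 to 4969 CPM in the adult.

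Cell type markers differed widely here, where 19.0% of all genes were called. All 5 Paneth markers were higher, with sums of 9287 to 25694 CPM against 95.9 and 86.8 CPM and Lyz1 (9.25) as the most abundant, and all 4 tuft markers, led by Trpm5 (7.25). Of the immune markers 3 were higher and 1 lower, with Lyz2 (8.38) carrying most of sums of 2256 to 4177 CPM. The tested markers that were lower included 7 mesenchymal, 4 erythroid, 4 enterocyte and 1 enteroendocrine. Of 5 goblet markers 3 were higher, and of 6 stem cell markers 3. No endothelial or neural and glial marker was called. The adult libraries were isolated as crypts with EDTA, and by Xist (6.65 to 10.8 CPM) came from males, whereas E18.5 had 11.3 and 5175 CPM. Whether cell mixture, sex or isolation accounts for the rise of Fos, Junb, Atf3 and Dusp1 was not tested.

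**Figure D2:**
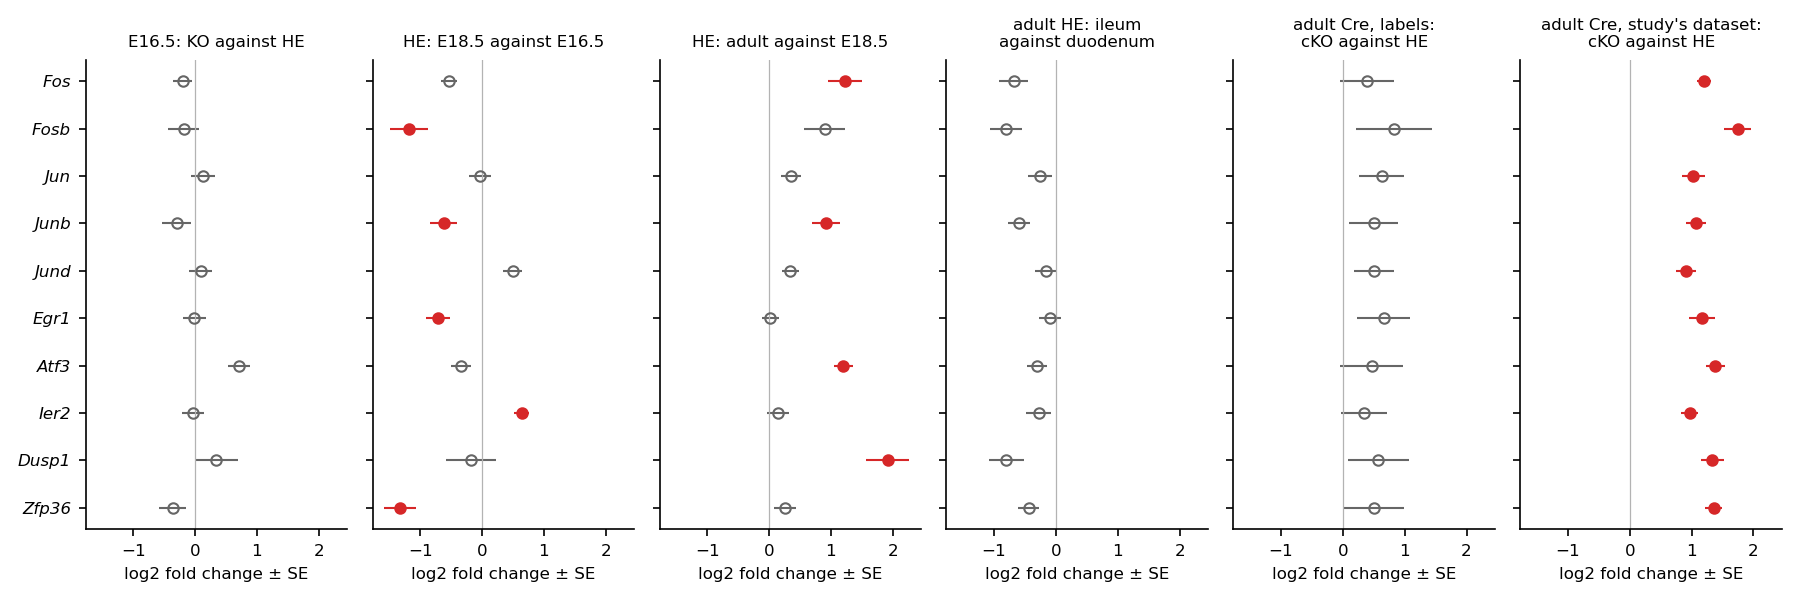
Log2 fold change of each member with its SE in the sorted comparisons, filled where it passed the thresholds. The adult against E18.5 changes are all positive (0.02 to 1.92), whereas at E18.5 against E16.5 Zfp36, Fosb, Egr1 and Junb lie below 0 and Ier2 above it, not called with TMM, edgeR or DESeq2.

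Ileum was compared with duodenum within the 2 adult mice. All 10 members had a negative change, with a median of -0.37 against 0.03 for all genes. None passed limma, against 6.88% of all genes, and 5 had an unadjusted p under 0.05. Counts at an unadjusted p are given in this report without the share of all genes, and are not read as a result. Called were 0 with edgeR, 2 with DESeq2 (Fosb and Fos) and 1 with TMM scaling (Junb). Of all genes these settings called 1210, 1041 and 1283, against 1280 in the main test. With the mouse as a block, when 11.1% of all genes were called, 4 members were: Fosb (-0.80), Fos (-0.68), Dusp1 (-0.80) and Junb (-0.59). Fosb was at 399 and 229 CPM in duodenum and at 187 and 160 CPM in the ileum of the same mice. Junb was at 70.5 and 81.5 CPM against 54.5 and 45.6 CPM. Both genes, like Fos and Dusp1, had each duodenum library above each ileum library, and 2 of 2 mice lower in ileum. This held by mouse for all members but Egr1, at 524 and 451 CPM against 409 and 503 CPM. Of 31 other immediate early genes 6 were lower in ileum, led by Sik1 (-1.81), Cyr61 (-1.18) and Egr3 (-1.03). Jdp2 (1.38) was the only AP-1 partner called. The phosphatases, upstream genes, Zfp36 paralogues and heat shock genes gave 0. All 4 tuft markers were lower in ileum (Trpm5, -3.12), with sums of 1713 and 3003 CPM against 208 and 420 CPM, and so were all 6 enterocyte markers. Their part in the difference was not tested.

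The Cre libraries ask whether acute loss of Lgr5 in adult ileum changed the members. By the labels, none of the 10 passed, against 0.0504% of all genes, with 0 at an unadjusted p under 0.05 in limma and 0 called by edgeR and by DESeq2. All 10 changes were positive, 0.34 for Ier2 to 0.83 for Fosb. The median of all genes was 0.09 and shifted by -0.13 with TMM. Relative to the median the changes ran from 0.25 to 0.74. Every member overlapped between the labels. Fos was at 525 and 232 CPM in the libraries labelled HE and at 583, 267 and 613 CPM in those labelled cKO. Without the library labelled HE 2 only 5 changes were positive and their median was -0.01, with Fos at -0.20 and Zfp36 at -0.09.

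Values of the study's dataset name these libraries differently. All 859 values compared were identical for each library, and they give the library labelled HE 1 as cKO and that labelled cKO 2 as HE. Which naming is right cannot be told from Lgr5 itself. With the dataset's genotypes all 10 members passed as higher in cKO, against 3.92% of all genes. By this grouping Fosb was at 327, 395.0 and 499 CPM in cKO and at 93.0 and 152 CPM in HE, a change of 1.74 (SE 0.22, adjusted p 0.0128). Fos changed by 1.20 (SE 0.12, adjusted p 0.00371), Zfp36 by 1.35 (adjusted p 0.00478) and Atf3 by 1.38 (adjusted p 0.00609). For Jun, Junb and Jund the changes were 1.03, 1.06 and 0.91. Egr1 had 1.17, Ier2 0.97 and Dusp1 1.34. In each of the 10 genes the 3 cKO libraries lay above both HE libraries. All 10 also passed with TMM scaling and with edgeR, and 8 without the library labelled cKO 3, where Egr1 (1.13) and Jun (0.96) were lost. These last 3 settings were chosen after seeing the data. No setting of this comparison called more genes than the 779 of 19848 behind that 3.92%.

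The members' high libraries were also the deep ones. Those labelled HE 1, cKO 1 and cKO 3 had 9055316, 8122527 and 9991645 reads and 32121, 35792 and 42154 genes above 0. The low ones, labelled HE 2 and cKO 2, had 3084661 and 5716673 reads and 22675 and 24944 genes above 0. Genotype by the dataset and library size cannot be told apart for Fos or any other member. Sex divides the labels instead: Xist was at 1.70 and 0.65 CPM in the libraries labelled HE and at 1298, 1162 and 1551 CPM in those labelled cKO. The 4 Y-linked genes summed to 161 and 162 CPM against 0.45, 0 and 0 CPM. By the dataset's genotypes, with 3.92% of all genes called, 17 of 32 other immediate early genes were higher, led by Tnfaip3 (2.24), Cyr61 (1.99) and Klf2 (1.98). Maf (1.56), Fosl1 (0.94) and Mafk (0.60) were higher among AP-1 partners, Dusp5 (1.44), Spry1 (1.41) and Dusp8 (0.96) among phosphatases and inhibitors, and Dnajb1 (0.75) among heat shock genes. Upstream genes and Zfp36 paralogues gave 0. Of the Paneth markers 4 were lower, led by Pla2g2a (-1.24), with sums of 2530, 1791 and 2053 CPM against 4998 and 3796 CPM, and the 4 tuft markers were higher (Dclk1, 2.08). Alpi (1.13) of the enterocyte markers and Cck of the enteroendocrine markers were higher, and Lyz2 of the immune markers was lower. By the labels, these lists had 0 called. Whether cell mixture bears on the members' rise was not tested.

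**Figure D3:**
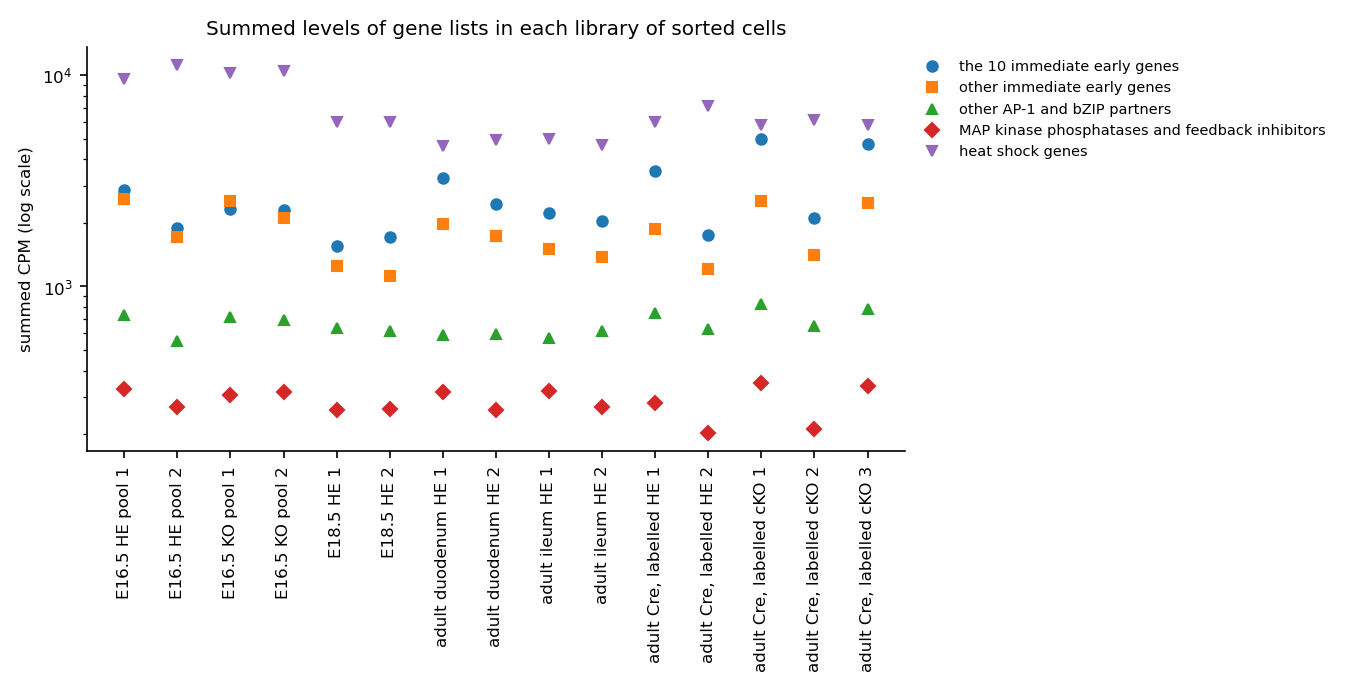
Summed CPM of the members, other immediate early genes, AP-1 and bZIP partners, phosphatases with feedback inhibitors, and heat shock genes in each sorted library, on a log axis. The members and the other immediate early genes share their highest Cre library, at 4967 and 2544 CPM in the library labelled cKO 1.

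The effect of Lgr5 loss in adult Cre cells minus that at E16.5 was tested as an interaction. It called 0 of 10 members, against 0.383% of all genes, with 0 at an unadjusted p under 0.05 in limma. Of the 10 differences 9 were positive and that of Atf3 was -0.25. With the dataset's genotypes, a setting chosen after seeing the data, 8 of 10 passed, against 6.60% of all genes. Without the library labelled cKO 2, Egr1 alone passed (1.11), when 3.98% of all genes did.

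**Figure D4:**
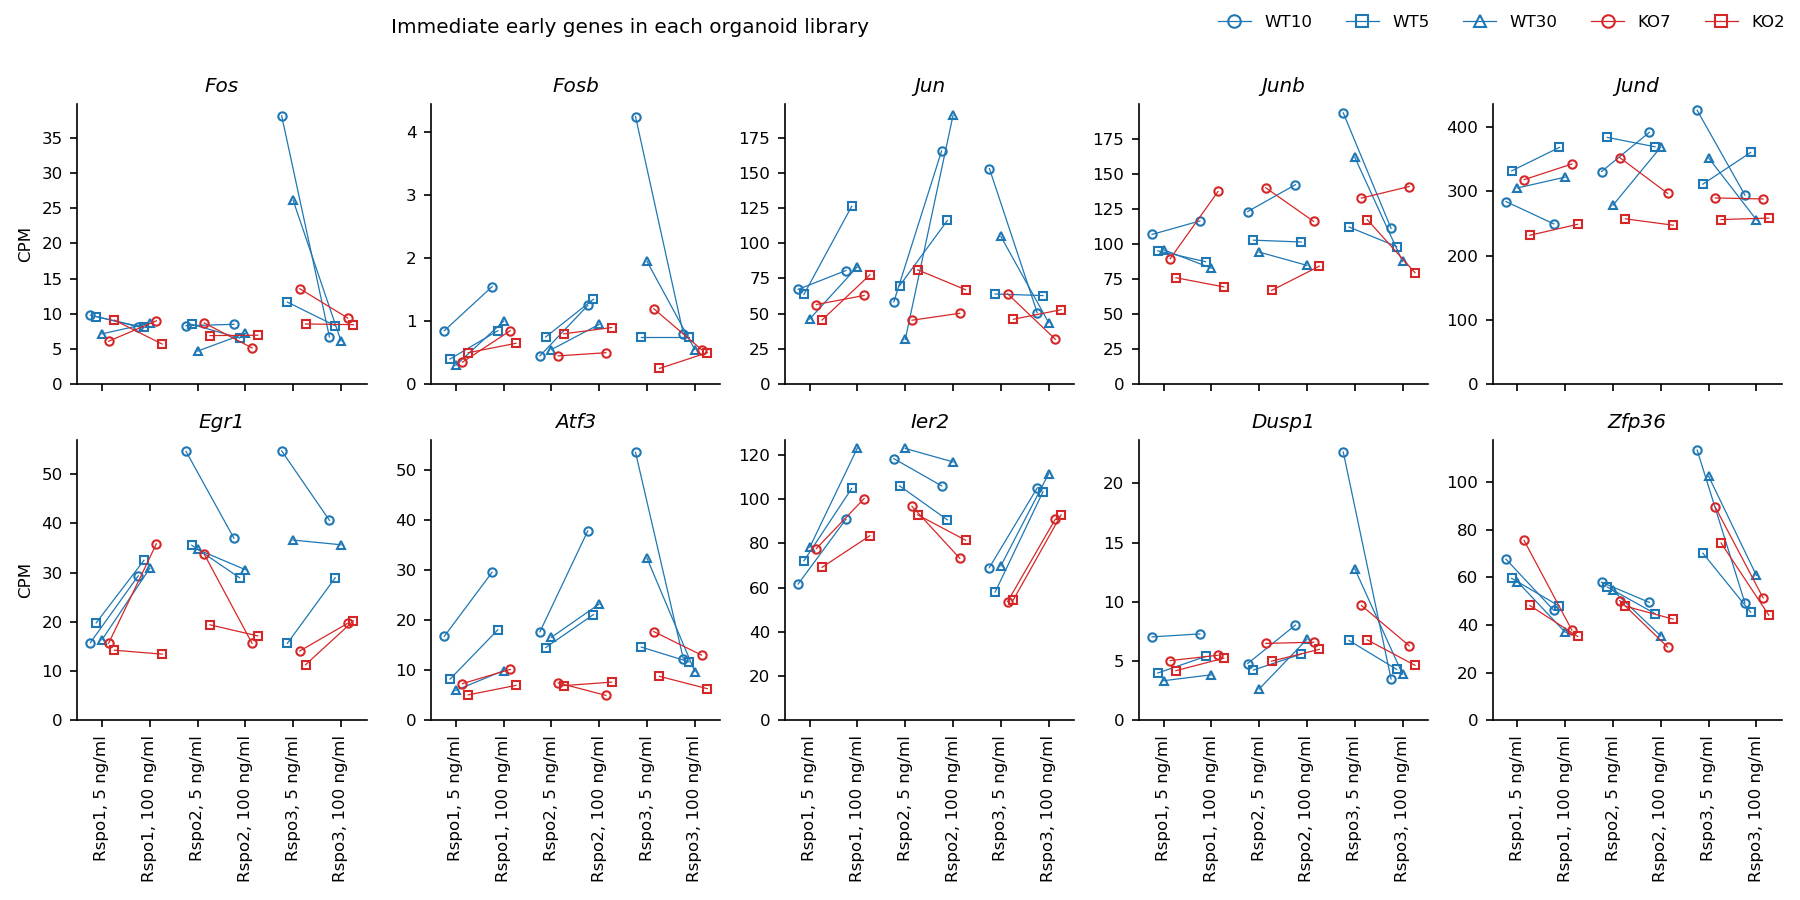
CPM of each member in the 30 organoid libraries by ligand and dose, on linear axes; each point is 1 library, WT in blue and KO in red, and lines join the doses of a culture. Fos stands at 38.1, 11.7 and 26.1 CPM in WT with Rspo3 at 5 ng/ml and at 4.70 to 13.6 CPM in all other libraries.

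Organoids were tested for the effect of dose, ligand and genotype, at an adjusted p of 0.05. In WT cultures the median of all genes moved with dose, by 0.28, 0.17 and 0.24 for Rspo1, Rspo2 and Rspo3, and TMM scaling removed most of it, leaving 0.01, -0.02 and 0.05. Genes called higher at 100 ng/ml were 76.6%, 72.7% and 73.4% of those called, and 48.7%, 42.3% and 54.1% with TMM. Changes are therefore also given relative to the median.

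Rspo3 moved the most members in WT, with 7 of 10 called against 51.4% of all genes. Fos was at 6.70, 8.30 and 6.15 CPM at 100 ng/ml and at 38.1, 11.7 and 26.1 CPM at 5 ng/ml in WT10, WT5 and WT30. It fell with dose in 3 of 3 cultures, a change of -1.57 (SE 0.29, adjusted p 9.9e-05), or -1.81 relative to the median. Fosb was the least abundant member, at 0.80, 0.75 and 0.55 CPM against 4.25, 0.75 and 1.95 CPM. Its change was -0.82 (SE 0.26, adjusted p 0.0114; -1.07 relative), and it was lower in 2 of 3 cultures and equal in WT5. Jun, the AP-1 subunit that can also act as a homodimer, was at 50.8, 62.9 and 43.6 CPM against 153, 64.0 and 105 CPM. It changed by -0.95 (SE 0.31, adjusted p 0.0147; -1.19 relative), lower in 3 of 3 cultures but by little in WT5. Atf3 was at 12.3, 11.7 and 9.75 CPM against 53.5, 14.7 and 32.4 CPM, a change of -1.32 (SE 0.41, adjusted p 0.00984; -1.57 relative).

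The feedback regulators fell too. Dusp1 was at 3.50, 4.30 and 3.90 CPM at the high dose and at 22.7, 6.75 and 12.8 CPM at the low dose, a change of -1.48 (SE 0.30, adjusted p 0.000239; -1.72 relative). Zfp36 was at 49.2, 45.4 and 60.9 CPM against 114, 70.2 and 102 CPM, a change of -0.85 (SE 0.18, adjusted p 0.000367; -1.09 relative). Ier2 was again the exception, at 105, 103 and 112 CPM against 69.1, 58.0 and 69.8 CPM. It rose by 0.70 (SE 0.12, adjusted p 3e-05; 0.45 relative). Atf3, Dusp1, Zfp36 and Ier2 moved the same way in 3 of 3 cultures without overlap between doses. A block for culture, under which 61.8% of all genes were called, added Junb (-0.62). TMM scaling called 9 members, adding Junb (-0.88) and Jund (-0.52), when 9122 of all genes were called, against 9839 without it. It turned Egr1, not called either way, from 0.13 to -0.12. Over all settings of this comparison 7683 to 11819 genes were called. Without WT10 or without WT30, 4 members were called: Fos (-1.18 and -1.39), Dusp1 (-1.02 and -1.47), Zfp36 (-0.68 and -0.90) and Ier2 (0.74 and 0.71). Culture WT5 thus showed much smaller differences in Fos, Jun, Atf3 and Dusp1 than WT10 and WT30.

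With Rspo1 3 members were called in WT, against 53.4% of all genes. Egr1 was at 29.4, 32.5 and 30.9 CPM at 100 ng/ml and at 15.8, 19.8 and 16.4 CPM at 5 ng/ml, higher in 3 of 3 cultures. It rose by 0.81 (SE 0.32, adjusted p 0.0406; 0.52 relative). Ier2 was at 91.0, 105 and 123 CPM against 61.6, 72.1 and 78.2 CPM, a rise of 0.58 (SE 0.12, adjusted p 0.000266; 0.30 relative) in 3 of 3. Zfp36 was at 46.2, 48.0 and 37.0 CPM against 67.7, 59.7 and 58.2 CPM, a change of -0.50 (SE 0.18, adjusted p 0.0225; -0.78 relative), lower in 3 of 3. None of the 3 genes overlapped between doses. With TMM, when 8731 of all genes were called, against 10224 without it, only Zfp36 was called, at -0.83. Egr1 was then at 0.48 (0.47 relative) and Ier2 at 0.24 (0.23 relative). Atf3 (0.82) and Jun (0.69) joined with culture as a block, when 64.1% of all genes were called. Without WT10 or WT30 only Ier2 passed (0.59 and 0.54), though Egr1 (0.78 and 0.77) and Zfp36 (-0.48 and -0.42) changed little in size. Without WT5, Ier2 (0.60) and Zfp36 (-0.59) passed, with Egr1 at 0.86 (adjusted p 0.0515).

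Rspo2 gave 1 called member in WT, against 33.4% of all genes. Jun was at 166, 116 and 191 CPM at 100 ng/ml and at 58.4, 69.8 and 31.8 CPM at 5 ng/ml. It rose by 1.59 (SE 0.31, adjusted p 0.000759; 1.42 relative) in 3 of 3 cultures without overlap, and without WT30 it was not called (1.11). TMM gave 3: Jun (1.35), Zfp36 (-0.62) and Ier2 (-0.39), when 5813 of all 19130 genes were called, against 6395 without it. With culture as a block, when 47.5% of all genes were called, Dusp1 (0.69) joined Jun. Jun thus rose with Rspo2 and fell with Rspo3 in WT.

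**Figure D5:**
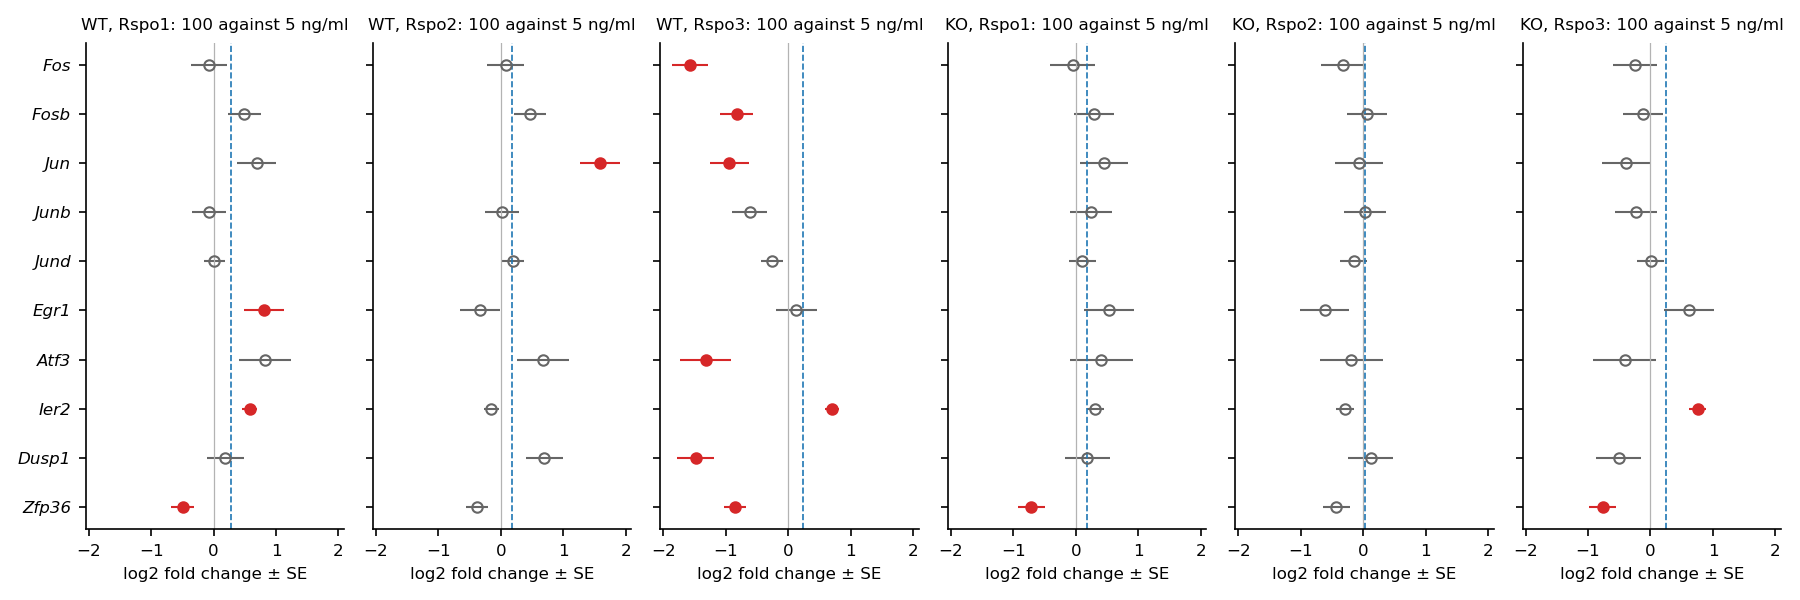
Log2 fold change of each member for 100 against 5 ng/ml with its SE, by ligand and genotype, filled where it passed an adjusted p of 0.05, with the median of all genes as a dashed line. With Rspo3 in WT, Fos, Dusp1, Atf3, Jun, Zfp36 and Fosb lie below 0 and Ier2 above it, and Egr1, not called, lies above 0 here and below it with TMM.

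In KO cultures Rspo1 called 1 member, against 29.8% of all genes. The median of all genes was 0.19, and -0.01 with TMM, where genes called higher went from 73.6% to 46.9%. Zfp36 was at 37.9 and 35.2 CPM at 100 ng/ml and at 75.5 and 48.2 CPM at 5 ng/ml in KO7 and KO2. Its change was -0.71 (SE 0.22, adjusted p 0.0175; -0.90 relative), lower in 2 of 2 cultures, and without KO7 it was not called (-0.44). Ier2 (0.32) joined with culture as a block, when 43.8% of all genes were called. Rspo2 called 0, against 0.115% of all genes, with 0 at an unadjusted p under 0.05 in limma. Rspo3 called 2, against 44.5% of all genes, where the median of all genes was 0.24, and 0.03 with TMM, and genes called higher went from 73.6% to 52.9%. Ier2 was at 91.0 and 92.9 CPM against 53.7 and 54.5 CPM, a rise of 0.76 (SE 0.14, adjusted p 0.000171; 0.51 relative) in 2 of 2. Zfp36 was at 51.5 and 44.1 CPM against 89.5 and 74.5 CPM, a change of -0.76 (SE 0.22, adjusted p 0.00654; -1.01 relative), lower in 2 of 2. Without KO7 Ier2 alone passed, with Zfp36 at -0.74. Ier2 and Zfp36 therefore moved with Rspo3 dose in both genotypes, in opposite directions.

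Dose effects in KO minus those in WT were tested directly. With limma 0 of 10 members differed for Rspo1, against 0% of all genes, with 0 at an unadjusted p under 0.05. For Rspo2 0 differed, against 0.439%, with 1 at that p, and for Rspo3 0, against 0%, with 2. Jun had the largest difference with Rspo2, -1.65 (SE 0.50, adjusted p 0.149), where the median of all genes was -0.12, and 0.01 with TMM. Without WT5 it was called, at -2.08. With Rspo3 all 10 differences were positive, led by Fos (1.32, SE 0.46, p 0.00859) and Dusp1 (0.97), neither called. The fall of Fos with Rspo3 in WT is thus not shown to differ from that in KO, where Fos was at 9.40 and 8.45 CPM against 13.6 and 8.55 CPM.

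Ligands were compared over both doses. Rspo2 against Rspo1 in WT called 1 member, against 12.1% of all genes. It was Ier2, with 61.6, 84.6 and 123 CPM (lowest, median, highest of 6) for Rspo1 and 90.7, 111 and 123 CPM for Rspo2, which overlap. The ligands differed at 5 ng/ml, with 61.6 to 78.2 CPM for Rspo1 and 106 to 123 CPM for Rspo2, whereas 100 ng/ml gave 91.0 to 123 and 90.7 to 117 CPM. With dose Ier2 went up with Rspo1 and down with Rspo2, each in 3 of 3 cultures. Over both doses its change was 0.34 (SE 0.08, adjusted p 0.011), and it was lost with TMM, without WT10 (0.23) and without WT30 (0.37). With culture as a block, when 26.5% of all genes were called, Atf3 (0.64) and Egr1 (0.62) joined. Genes called higher were 68.2%, and 52.9% with TMM. Rspo3 against Rspo1 in WT called 1, against 25.6% of all genes, with the median of all genes at -0.12, and -0.01 with TMM. Genes called higher were 21.5%, and 53.0% with TMM. Zfp36 changed by 0.41 (SE 0.13, adjusted p 0.02; 0.54 relative), from 37.0, 53.1 and 67.7 CPM (lowest, median, highest of 6) for Rspo1 to 45.4, 65.5 and 114 CPM for Rspo3, which overlap. At 5 ng/ml they did not, with 58.2 to 67.7 CPM against 70.2 to 114 CPM. It was lost without WT10 (0.42) and without WT30 (0.25), and without WT5 (0.58) Fos (0.73) and Egr1 (0.88) joined it. With TMM Fos, Dusp1 and Zfp36 were called, when 3931 of all genes were, against 4888 without it. With culture as a block, when 41.7% of all genes were called, Fos (0.53), Dusp1 (0.45), Egr1 (0.50) and Junb (0.34) joined.

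In KO the ligands gave 0 members for Rspo2 against Rspo1, against 1.83% of all genes, with 0 at an unadjusted p under 0.05 in limma. They gave 0 for Rspo3 against Rspo1, against 14.5%, with 2 at that p. With culture as a block, when 26.2% of all genes were called, Zfp36 passed (0.40). Genes called higher were 86.9% and 21.3%, and 61.9% and 38.1% with TMM.

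Genotype was tested on means over conditions, 3 WT cultures against 2 KO. None of 9 members was called, against 0.169% of all genes, and 4 had an unadjusted p under 0.05: Atf3 (-0.99), Egr1 (-0.71), Jun (-0.50) and Ier2 (-0.22). That count of 4 has no share of all genes at the same p beside it and is not read as a result. Fosb was too low to be tested. With Rspo2 at 100 ng/ml alone Atf3 was called, at -1.93, when 1.20% of all genes were, with 37.9, 21.1 and 23.2 CPM in WT and 5.00 and 7.65 CPM in KO. The cultures of each genotype also shared a sex. Xist was at 1029.7 to 3926 CPM in WT and at 0.45 to 213 CPM in KO, and the Y-linked genes summed to 0 to 1.15 CPM and to 187 to 248 CPM. Genotype and sex therefore cannot be told apart in Atf3 or any other member.

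Related genes were counted for dose as well. Of 31 other immediate early genes, 15 were called with Rspo3 in WT, against 51.4% of all genes, 11 with Rspo1, against 53.4%, and 16 with Rspo2, against 33.4%. With Rspo3, 6 of them were higher, led by Myc (1.86) and Klf10 (1.37), and 9 lower, led by Sgk1 (-1.86), Klf6 (-1.02) and Trib1 (-0.94). AP-1 partners gave 4 higher, led by Jdp2 (2.01), and 5 lower, Maf (-1.42) and Maff (-1.12) among them. Phosphatases and inhibitors gave 3 higher, led by Spred1 (1.48), and 4 lower, led by Dusp5 (-1.87), Dusp6 (-1.23) and Dusp10 (-1.09). Zfp36l2 rose (0.62), and 6 heat shock genes were higher, led by Hspd1 (1.07). Upstream genes gave 6 higher and 4 lower. With Rspo1 the other immediate early genes gave 9 higher, led by Cyr61 (2.32) and Nr4a1 (1.77), and 2 lower. With Rspo2 they gave 11 higher, led by Cyr61 (2.78) and Ctgf (2.03), and 5 lower, led by Nr4a3 (-1.23). In KO they gave 7 higher and 1 lower with Rspo1 and with Rspo3, against 29.8% and 44.5% of all genes called, and 1 higher with Rspo2, Sgk1 (1.53). All 6 stem cell markers were higher at 100 ng/ml for each ligand and genotype except Rspo2 in KO, and 4 enterocyte markers were lower for each ligand in WT. Whether cell mixture changed, and whether it bears on the members, was not tested.

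The members were alike across libraries to differing degrees. In sorted cells 43 of 45 pairs of members had a Pearson r above 0 over 15 libraries, with a median of 0.71. It was highest for Jund and Ier2 (0.95), Junb and Jund (0.94) and Jun and Atf3 (0.91). Jun was closest to the mean of the other members (0.96) and Egr1 farthest (0.34). In organoids 40 of 45 pairs were above 0 over 30 libraries, with a median of 0.47. Ier2 was the one that ran against others there, with -0.54 to Zfp36, -0.48 to Dusp1 and -0.43 to Fos. Libraries of 1 group, litter, mouse or culture share their origin, so these r describe the libraries and were not tested. Outside the members, those most like their mean in sorted cells, of 10912 genes, were Nr1d1 (0.89), Ivd (0.89), Irf2 (0.88), Plk3 (0.87) and Smarca2 (0.87), by r over the 15 libraries. In organoids, of 10628 genes over 30 libraries, they were Trib1 (0.91), Zyx (0.86), Dusp8 (0.82), Hbegf (0.80) and 4930539E08Rik (0.80).

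Promoter windows of 300 bases were read for sites that classically serve these genes. They are RefSeq sequences of GRCm38.p6, and those of 8 members were read. No window of Egr1 or Ier2 was read, so whether these genes have such sites was not tested. The counts of members with a site cover the 8 read. The window of Jund (chromosome 8, 70697489 to 70697788) ends upstream of the gene's annotated start at 70698949, so it does not span that start. The windows of Atf3, Dusp1 and Zfp36 lie inside the gene's annotated span, downstream of its outermost start. Both strands were searched for the full cAMP response element TGACGTCA, its core TGACGT, the AP-1 site TGANTCA (N any base) and the CArG box, which binds serum response factor. The core was added after the sequences were seen. Sites outside a window, or that differ from these patterns by a base, could not be found, so a window without a match may still belong to a gene with such a site. TGACGTCA was present in Dusp1 only (positions -143 to -136, counted here and below from the RefSeq start that each window was cut around) and in 1.79% of 32851 windows. The core lay in Fos (-66 to -61), in Atf3 (-8 to -3, on the reverse strand) and at 3 places in Dusp1, a pair of which lie within TGACGTCA, and in 7.51% of windows. The CArG box lay in Zfp36 (-58 to -49) and in 1.63% of windows. TGANTCA lay in none of the 8, that of Jund included, and in 7.81% of windows. The 4 windows with a site are printed with the sites in capitals, since a match describes the sequence and shows no binding.

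Fos: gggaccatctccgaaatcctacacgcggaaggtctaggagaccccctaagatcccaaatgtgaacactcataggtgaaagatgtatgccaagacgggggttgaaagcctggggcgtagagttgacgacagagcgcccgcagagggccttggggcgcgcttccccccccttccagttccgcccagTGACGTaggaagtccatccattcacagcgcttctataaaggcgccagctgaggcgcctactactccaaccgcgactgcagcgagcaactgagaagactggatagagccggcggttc

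Atf3: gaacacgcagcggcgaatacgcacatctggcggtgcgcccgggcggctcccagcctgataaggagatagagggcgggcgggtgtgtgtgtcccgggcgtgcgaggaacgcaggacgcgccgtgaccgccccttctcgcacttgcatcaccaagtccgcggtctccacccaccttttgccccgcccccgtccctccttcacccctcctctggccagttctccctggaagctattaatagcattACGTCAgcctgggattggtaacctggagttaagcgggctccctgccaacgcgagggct

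Dusp1: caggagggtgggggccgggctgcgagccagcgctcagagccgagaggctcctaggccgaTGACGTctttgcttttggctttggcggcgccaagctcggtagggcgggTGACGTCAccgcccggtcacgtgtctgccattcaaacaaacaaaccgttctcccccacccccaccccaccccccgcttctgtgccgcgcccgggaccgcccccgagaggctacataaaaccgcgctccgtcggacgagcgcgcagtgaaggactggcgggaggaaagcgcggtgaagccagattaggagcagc

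Zfp36: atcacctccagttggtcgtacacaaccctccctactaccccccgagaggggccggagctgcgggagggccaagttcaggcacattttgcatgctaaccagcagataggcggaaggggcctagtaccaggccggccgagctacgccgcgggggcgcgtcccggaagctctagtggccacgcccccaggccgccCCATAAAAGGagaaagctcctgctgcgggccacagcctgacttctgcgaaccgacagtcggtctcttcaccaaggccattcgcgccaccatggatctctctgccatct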

How the data were processed

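Expression was measured by paired-end RNA sequencing of mouse cells in 45 libraries. The authors trimmed reads (Trimmomatic 0.36), mapped them with STAR 2.5.3a to GRCm38.p4 (mm10), counted genes with HTSeq 0.9.1 and deposited CPM. Values are rounded up to the next 0.05, and sorted cells and organoids form separate tables, so each test stays within 1 table. A gene entered a test if its CPM reached 1 in a number of libraries equal to the smallest group. Tests used limma 3.58.1 (R 4.3.3) on log2(CPM + 1), with p adjusted by Benjamini-Hochberg. Calls in sorted cells needed an adjusted p of 0.1 and a fold change of 1.5, those of their interaction 0.1 alone, and those in organoids 0.05. Reads of the sorted libraries were recovered from the spacing of low values for edgeR 4.0.16 and DESeq2 1.42.0. Other settings were a pseudocount of 0.1, a filter on nonzero genes, TMM scaling, replicate blocks, 1 fit over all libraries, and leaving out each library or culture. The pipeline was tested on simulated data. Lengths and overlaps come from GENCODE M21. Members, related lists (immediate early, AP-1 and bZIP, phosphatase and inhibitor, upstream, Zfp36 paralogue and heat shock genes) and markers were chosen with earlier results of these data known, and named genes of the lists are those with the largest called changes. Paired libraries, after removal of group means, correlated with r -0.04 for the E16.5 litters and 0.34 for the adult mice, and with a median of 0.37 to 0.55 within organoid cultures. No library was left out.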

Additional observations from a re-analysis of the deposited data

How the results depend on the processing

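Of 199 pairs of member and comparison 25 passed their test. Under the alternatives, 228 values of these kept their sign, and 179 still passed. Members that had not passed gave 1598 values, of which 90 passed and 121 had the other sign. Counts of members that moved are as follows, and the cause was not tested. With a block for litter or mouse, E16.5 KO against HE had 1 and ileum against duodenum 4. With culture as a block, Rspo1 dose had 5 in WT and 2 in KO, Rspo2 dose in WT 2, Rspo2 against Rspo1 in WT 3, and Rspo3 against Rspo1 5 in WT and 1 in KO. Blocks changed no other count by over 1.5 times. The block on label numbers ties groups by number alone, though the adult duodenum and ileum libraries of 1 number are also of 1 mouse. It gave 4 for adult against E18.5, 5 for E18.5 against E16.5 and 0 for Cre, where the paired numbers correlated with r -0.05 (E18.5 and E16.5), 0.03 (E18.5 and duodenum) and 0.24 and 0.50 (Cre). With TMM, ileum against duodenum had 1, Rspo1 dose 1 and Rspo2 dose 3 in WT, Rspo2 against Rspo1 0 and Rspo3 against Rspo1 3. DESeq2 gave 2 for ileum. E18.5 against E16.5 had 2 with all genes above 0 in a library, and 2 in 1 fit of all sorted libraries. With the dataset's genotypes Cre had 10, also with TMM and with edgeR, and 8 without the library labelled cKO 3, and the interaction 8. KO against WT at Rspo2 100 ng/ml alone had 1. Leaving out 1 library or culture gave 1 to 5 for adult against E18.5, 0 to 7 for E18.5 against E16.5 and 0 to 1 for the interaction of Lgr5 loss. In WT organoids it gave 1 to 2 for Rspo1 dose, 0 to 1 for Rspo2 dose, 4 to 7 for Rspo3 dose, 0 to 1 for Rspo2 against Rspo1 and 0 to 3 for Rspo3 against Rspo1. In KO it gave 0 to 1 for Rspo1 dose and 1 to 2 for Rspo3 dose, and the Rspo2 dose difference between genotypes had 0 to 1. A library left alone in its group is assumed to vary like the other groups. The sign changes were all in members that had not passed, and their cause was not tested either. With TMM, Rspo1 dose in WT gave Jund -0.33 and Dusp1 -0.10, Rspo2 dose Fos -0.14, Junb -0.23 and Jund -0.045, and Rspo3 dose Egr1 -0.12. In KO it gave Jund -0.14 and Dusp1 -0.019 for Rspo1, Junb -0.054 for Rspo2 and Jund -0.29 for Rspo3. The dose differences between genotypes gave Dusp1 0.080 for Rspo1, and Ier2 0.016 and Zfp36 0.11 for Rspo2. Between ligands TMM gave Dusp1 -0.0027 for Rspo2 and Jun 0.10 and Ier2 0.10 for Rspo3 in WT. In KO it gave Jund -0.086 and Ier2 -0.043 for Rspo2 and Jund 0.034 for Rspo3, where a pseudocount of 0.1 gave Fosb -0.029. With ileum alone, adult against E18.5 gave Egr1 -0.028 and Ier2 -0.00030, and with the dataset's genotypes the interaction gave Atf3 0.67. KO against WT in single conditions gave Fos 0.14 and Jun 0.26 (Rspo2, 5 ng/ml), Fos 0.31 and Junb 0.10 (Rspo3, 100 ng/ml) and Junb 0.049 (Rspo1, 100 ng/ml). It gave Ier2 0.059 (Rspo1, 5 ng/ml), Dusp1 -0.091 (Rspo2, 100 ng/ml) and Dusp1 -0.58 (Rspo3, 5 ng/ml). The remaining ranges come from leaving out 1 library or culture. E16.5 KO against HE ran over Fosb -0.68 to 0.30, Jun -0.13 to 0.40, Jund -0.079 to 0.26, Egr1 -0.29 to 0.27, Ier2 -0.12 to 0.054, Dusp1 -0.30 to 0.99 and Zfp36 -0.78 to 0.049. Egr1 ran from -0.092 to 0.14 in adult against E18.5 and from -0.25 to 0.048 in ileum against duodenum. E18.5 against E16.5 had Jun -0.30 to 0.23 and Dusp1 -0.82 to 0.47. Cre had Fos -0.20 to 0.97, Fosb -0.072 to 1.73, Atf3 -0.052 to 0.99, Ier2 -0.049 to 0.74 and Zfp36 -0.095 to 1.09. The interaction had Fos -0.0026 to 1.17, Jund -0.062 to 0.89, Atf3 -0.76 to 0.28, Ier2 -0.017 to 0.77 and Dusp1 -0.42 to 0.88. In WT, Rspo1 dose had Fos -0.23 to 0.0078, Junb -0.17 to 0.00090 and Jund -0.055 to 0.11. Rspo2 dose had Fos -0.15 to 0.28 and Junb -0.085 to 0.094, and Rspo3 dose Egr1 -0.23 to 0.41. In KO, Rspo1 dose had Fos -0.59 to 0.49, Junb -0.13 to 0.61 and Egr1 -0.078 to 1.15. Rspo2 dose had Fos -0.66 to 0.0091, Jun -0.27 to 0.14, Junb -0.27 to 0.33 and Atf3 -0.50 to 0.12. Rspo3 dose had Fosb -0.51 to 0.26, Jun -0.99 to 0.19, Junb -0.56 to 0.086 and Jund -0.0080 to 0.013. Rspo1 dose differences between genotypes had Fos -0.52 to 0.57, Jun -0.54 to 0.065, Junb -0.058 to 0.68, Jund -0.0096 to 0.16, Egr1 -0.88 to 0.34, Dusp1 -0.082 to 0.084 and Zfp36 -0.48 to 0.054. Those of Rspo2 had Junb -0.28 to 0.32, Egr1 -0.72 to 0.17 and Zfp36 -0.31 to 0.21, and those of Rspo3 Jun -0.040 to 1.14 and Zfp36 -0.084 to 0.20. Rspo2 against Rspo1 in WT had Fosb -0.079 to 0.22 and Dusp1 -0.058 to 0.14. Rspo3 against Rspo1 in WT had Jun -0.18 to 0.19, Jund -0.063 to 0.17 and Ier2 -0.16 to 0.017. Rspo2 against Rspo1 in KO had Fosb -0.10 to 0.23, Jun -0.31 to 0.31, Jund -0.029 to 0.071, Egr1 -0.042 to 0.37, Atf3 -0.44 to 0.25, Ier2 -0.067 to 0.19 and Zfp36 -0.43 to 0.13. Rspo3 against Rspo1 in KO had Fosb -0.20 to 0.22, Jund -0.19 to 0.10 and Egr1 -0.49 to 0.12. KO against WT had Junb -0.42 to 0.20 and Dusp1 -0.093 to 0.21. Depth limits Fosb in organoids, where 1 read is 0.0302 to 0.0542 CPM and the gene is at 0.25 to 4.25 CPM. Each group held 2 or 3 libraries, and whether this limited the other results was not tested.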
